A study of Arabidopsis thaliana with 33 samples.

Results

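The 10 genes described here make jasmonate or report on it in Arabidopsis thaliana. They are the lipoxygenase genes LOX2, LOX3 and LOX4, the allene oxide synthase gene AOS, the reductase gene OPR3, the vegetative storage protein genes VSP1 and VSP2, the defensin genes PDF1.2A and PDF1.2b, and the thionin gene THI2.1. They were picked by locus identifier from the 32823 genes of the RNA tables, with no measured value in the rule. The choice was made with earlier results of these data known, so it was not blind to them. All 10 were found there and in the H3ac tables. RNA-seq covered 5 genotypes with 3 samples each. These were wild type (WT), an hhp1 line and an hda6 line that each carry a T-DNA insertion, the mbd1/2/4 triple mutant (mbd124) and the sant1234-null quadruple mutant. Chromatin immunoprecipitation for acetylated histone H3 (H3ac), a mark of active genes, covered WT, sant1234-null and hda6 with 3 ChIP and 3 input samples each. All 33 samples were untreated 12-day-old seedlings grown on plates in long days, so no group was wounded or given jasmonate, and the labels name no alleles.

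Jasmonates are lipid hormones made from plastid fatty acids when a plant is wounded or attacked. Lipoxygenases oxidise the fatty acid, AOS turns the product into an allene oxide, and OPR3 reduces the intermediate OPDA in the peroxisome before the side chain is shortened. Jasmonoyl-isoleucine then joins the receptor COI1 to JAZ repressors, which are degraded. One output branch runs through MYC factors to wound genes such as VSP1 and VSP2, and the other runs through the ERF factors ERF1 and ORA59 to defensins such as PDF1.2A, together with ethylene.

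The promoter stretches below hold motifs that these factors are known to bind, and they are shown because they bear on the 2 output branches. Capitals mark the motif. The window searched was the 250 bases before each start site, on both strands. The sequences are from the RefSeq TAIR10.1 genome, whose gene coordinates equal those of the deposited H3ac tables for 100% of 32536 shared genes.
PDF1.2A GCC box, chr5:17907828-17907887, minus strand: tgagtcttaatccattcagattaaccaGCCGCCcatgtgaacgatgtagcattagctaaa
PDF1.2b GCC box, chr2:11088953-11089012, plus strand: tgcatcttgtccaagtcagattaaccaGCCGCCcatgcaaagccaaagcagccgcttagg
VSP1 T/G-box, chr5:8509339-8509398, minus strand: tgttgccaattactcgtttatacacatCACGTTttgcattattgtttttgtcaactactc
LOX4 T/G-box, chr1:27308392-27308451, plus strand: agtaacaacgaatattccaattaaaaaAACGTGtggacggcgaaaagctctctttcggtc
AOS G-box, chr5:17099596-17099628, minus strand: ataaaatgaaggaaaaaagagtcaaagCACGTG
The GCC box (GCCGCC or GGCGGC), bound by ERF factors, was in 2 of the 10 windows and in 1.87% of 27431 promoters. The T/G-box (AACGTG or CACGTT) was in 4 of the 10, those of LOX4, VSP1, PDF1.2A and THI2.1, and in 7.53% of promoters. The stretches of PDF1.2A and THI2.1 with this motif are not printed. The G-box (CACGTG), the MYC motif, was in 1 of the 10 and in 6.49% of promoters. These letters are matches in a window and not bound sites. VSP2, LOX2, LOX3 and OPR3 held none of these motifs in the window searched.

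The defensin genes are near copies, which bears on how their reads can be assigned. The first 120 coding bases of PDF1.2A and of 3 copies are given, with capitals where a base differs from PDF1.2A.
PDF1.2A: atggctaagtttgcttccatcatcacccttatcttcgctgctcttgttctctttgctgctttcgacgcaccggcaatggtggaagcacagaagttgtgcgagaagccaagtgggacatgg
PDF1.2b: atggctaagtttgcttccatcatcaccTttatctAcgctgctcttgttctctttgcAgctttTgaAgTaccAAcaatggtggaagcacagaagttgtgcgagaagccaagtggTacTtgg
PDF1.2c: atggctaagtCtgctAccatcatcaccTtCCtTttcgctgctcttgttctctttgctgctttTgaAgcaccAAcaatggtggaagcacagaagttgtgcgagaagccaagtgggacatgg
PDF1.3: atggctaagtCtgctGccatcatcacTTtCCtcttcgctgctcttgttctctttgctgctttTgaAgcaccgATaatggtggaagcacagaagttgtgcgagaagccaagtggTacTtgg
Over the 243 coding bases, PDF1.2A was identical to PDF1.2b at 93.8% of positions, to PDF1.2c at 93.4% and to PDF1.3 at 91.4%. The longest run shared with PDF1.2c was 52 bases. VSP1 and VSP2 were 87.8% identical with a longest shared run of 54 bases, and LOX3 and LOX4 were 79.7% identical with a run of 24. No source used here says how the authors counted reads that fit more than 1 copy, so the values of the defensin and VSP pairs are uncertain to that extent.

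Each RNA table pairs 1 mutant with WT and holds 1 FPKM, a fragment count scaled to gene length and sequencing depth, per genotype, with the 3 samples combined. No replicate spread can therefore be shown. RNA depth is unknown, and WT values differed between tables by a factor of 0.981 to 1. The H3ac tables hold 69959151 reads in genes in WT, 78316244 in sant1234-null and 68093284 in hda6. As a check of the labels, MBD1 had 15.5 FPKM in the WT column and 0.0476 in that of mbd124, MBD4 had 21.8 and 0.208, and MBD2 had 17.5 and 6.45. The adjusted p in the authors' deposited table was 0.619 for MBD1, 0.177 for MBD4 and 0.000861 for MBD2. MBD1 and MBD4 thus missed a threshold of 0.05 despite large gaps in FPKM, so a miss in these tables does not show a small change. HDA6 had 17.0 FPKM in the WT column and 18.8 in that of hda6, so its RNA does not mark the libraries labelled hda6, and hda6 below means the libraries so labelled. The sources used here pair no locus with the hhp1 and sant1234 genes, and this check was not made for them. Leaf and root markers were detected in all genotypes, while the floral genes AP3 and AG were below 0.2 FPKM. LHCB1.3, a leaf gene, was listed at 0 in WT and at 12620 to 14586 FPKM in the mutants, and no change is read from it.

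In WT, the levels of the 10 genes ran from abundant to barely detected. VSP2, an acid phosphatase-like storage protein of leaves, was highest with 857 to 876 FPKM over the 4 tables, above 99.7% of genes. LOX2, the plastid lipoxygenase of the wound response, followed at 490.1 to 501 FPKM. AOS stood at 107 to 109 FPKM, VSP1 at 90.7 to 92.7 and OPR3 at 82.2 to 84.0. LOX3 was at 9.12 to 9.33 FPKM, PDF1.2A at 5.47 to 5.59 and LOX4 at 4.76 to 4.86. THI2.1 and PDF1.2b were at 0.365 to 0.373 and 0.238 to 0.243 FPKM. These ranges show only how the tables were scaled, so whether neighbours in this order differ beyond replicate spread cannot be told.

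**Figure D1:**
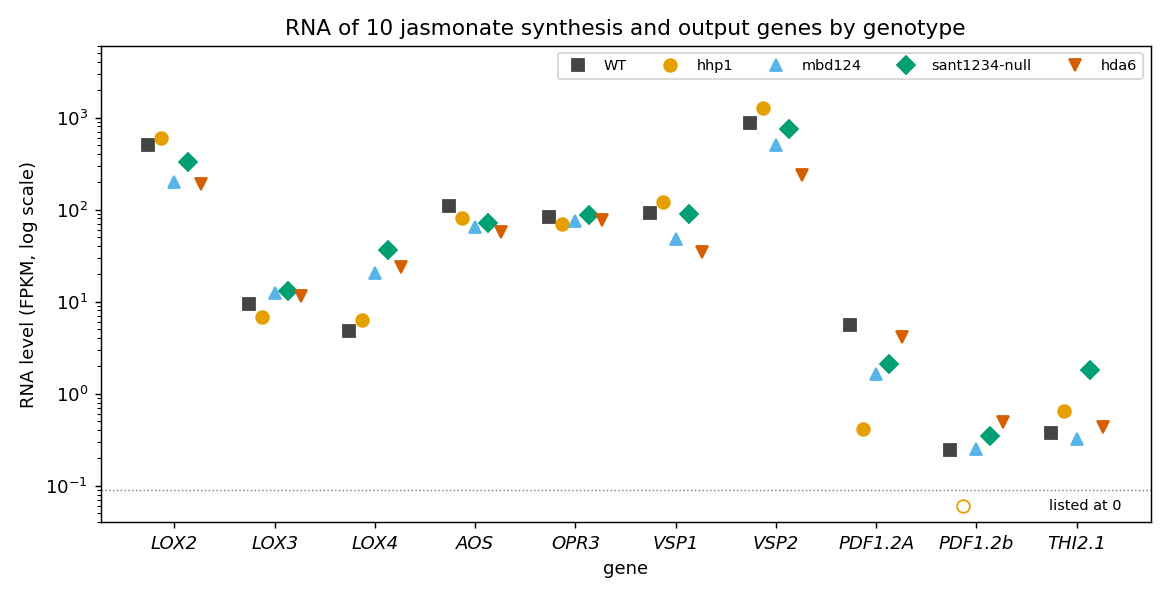
RNA level in FPKM (log axis) of the 10 genes in each genotype, 1 point per genotype with the replicates combined, and WT as the median over the 4 tables. LOX4 lies above WT in every mutant, PDF1.2A lies below WT in every mutant, and PDF1.2b in hhp1 is drawn as an open circle because it is listed at 0.

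In mbd124, sant1234-null and hda6, LOX4 rose while LOX2 and AOS fell. In hhp1, VSP2 rose while LOX3 and PDF1.2A fell. A gene is called changed where the adjusted p in the authors' deposited table is under 0.05. In hhp1, 1 of the 9 genes tested rose and 2 fell, where 6.14% of all tested genes were called, 2.88% higher and 3.26% lower. In mbd124, 2 of 8 rose and 5 fell, against 11.3% of all genes called, 4.85% higher and 6.42% lower. In sant1234-null, 2 of 9 rose and 3 fell, against 15.3%, 9.33% higher and 5.93% lower. In hda6, 1 of 8 rose and 4 fell, against 12.0%, 7.25% higher and 4.79% lower. The median log2 change of the tested members was 0.26 in hhp1, -0.78 in mbd124, -0.04 in sant1234-null and -0.66 in hda6, where that of all tested genes lay between -0.00 and 0.02. In whole seedlings, fewer cells of a type and less RNA per cell cannot be told apart. The labels do not say whether the 3 samples of a genotype were grown separately, so these p-values measure only the spread between those samples.

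LOX4 (AT1G72520, chromosome 1, 27308513 to 27312756, plus strand), a 13-lipoxygenase gene, had the largest called rise of the 10. It stood at 4.85 FPKM in WT, 6.38 in hhp1, 20.5 in mbd124, 36.0 in sant1234-null and 24.0 in hda6. The rise was 4.24-fold in mbd124 (log2 change 2.08 ± 0.16, standard error), 7.40-fold in sant1234-null (2.89 ± 0.17) and 5.05-fold in hda6 (2.34 ± 0.17). The adjusted p of these rises in the authors' deposited tables was 0.000861, 0.000723 and 0.000899. In hhp1 the log2 change was 0.39 ± 0.15, which did not pass (adjusted p 0.0873 in the authors' deposited table). LOX3 (AT1G17420, chromosome 1, 5977323 to 5981521, plus strand), its closest relative among the members, moved less. In hhp1 it fell from 9.31 to 6.85 FPKM (log2 change -0.44 ± 0.14). It rose to 12.5 FPKM in mbd124 (0.43 ± 0.15) and to 13 in sant1234-null (0.48 ± 0.16), and was at 11.5 in hda6 against 9.12 in WT (0.34 ± 0.16, not called).

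LOX2 (AT3G45140, chromosome 3, 16525245 to 16529352, plus strand) went the other way from LOX4 in 3 mutants. It fell from 499 FPKM in WT to 198 in mbd124, from 501 to 329.9 in sant1234-null and from 490.1 to 190.0 in hda6. The log2 changes were -1.34 ± 0.19, -0.60 ± 0.21 and -1.37 ± 0.20. In hhp1 it reached 598 FPKM beside 499.8 in WT, a log2 change of 0.26 ± 0.18 that did not pass (adjusted p 0.562 in the authors' deposited table). AOS (AT5G42650, chromosome 5, 17097564 to 17099595, minus strand), the single-copy enzyme after the lipoxygenases, was lower than WT in each mutant. It was at 109 FPKM in WT and 65.0 in mbd124 (-0.74 ± 0.15), 72.1 in sant1234-null (-0.60 ± 0.17) and 56.8 in hda6 (-0.91 ± 0.17), all called. In hhp1 it was at 81.3 FPKM (-0.42 ± 0.15, not called). OPR3 (AT2G06050, chromosome 2, 2359114 to 2362375, minus strand) was called in no mutant, with levels of 70.1, 75.01, 86.8 and 77.4 FPKM in hhp1, mbd124, sant1234-null and hda6. The 95% intervals of its log2 change ran from -0.55 to 0.03 in hhp1, -0.46 to 0.14 in mbd124, -0.27 to 0.37 in sant1234-null and -0.41 to 0.24 in hda6.

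The VSP genes lie close together on the minus strand of chromosome 5. VSP1 (AT5G24780) spans 8507590 to 8509201 and VSP2 (AT5G24770) spans 8500468 to 8502224. Both fell in mbd124 and hda6, and neither was called in sant1234-null. VSP2 rose from 874 FPKM in WT to 1268 in hhp1 (log2 change 0.54 ± 0.17). It fell to 498 in mbd124 (-0.81 ± 0.18) and to 239 in hda6 (-1.84 ± 0.19, 3.59-fold), and was at 750.4 in sant1234-null (-0.22 ± 0.20, not called). VSP1 fell from 92.3 FPKM to 48.0 in mbd124 (-0.94 ± 0.15) and from 90.7 to 34.4 in hda6 (-1.40 ± 0.17). The hhp1 level was 119.9 FPKM beside 92.5 for WT (0.37 ± 0.14, not called), and that of sant1234-null was 89.9 beside 92.7 (-0.04 ± 0.16, not called). The adjusted p of the falls in mbd124 and hda6 was 0.000861 and 0.000899 for both genes in the authors' deposited tables.

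PDF1.2A (AT5G44420, chromosome 5, 17906968 to 17907638, minus strand), the usual read-out of the ERF branch, was low in WT and lower in 3 mutants. It fell from 5.58 FPKM to 0.408 in hhp1, from 5.56 to 1.62 in mbd124 and from 5.59 to 2.12 in sant1234-null. The log2 changes were -3.77 ± 1.13, -1.78 ± 0.50 and -1.40 ± 0.41, with adjusted p of 0.0192, 0.00566 and 0.00692 in the authors' deposited tables. In hda6 it was at 4.13 FPKM beside 5.47 in WT (-0.41 ± 0.32, not called). These errors are the widest of the called members. With a pseudocount of 1 FPKM the change in hhp1 was -2.22. PDF1.2b (AT2G26020, chromosome 2, 11089123 to 11089805, plus strand) was marked as tested in no table. Its WT value was 0.242 FPKM, and it was listed at 0 in hhp1 and at 0.252, 0.343 and 0.491 in mbd124, sant1234-null and hda6. THI2.1 (AT1G72260, chromosome 1, 27198356 to 27199468, minus strand), an antimicrobial thionin, had 0.373 FPKM in WT, then 0.654 in hhp1, 0.323 in mbd124, 1.79 in sant1234-null and 0.434 in hda6. It was tested in 2 tables and called in none, and in sant1234-null the log2 change was 2.26 ± 1.38, or 1.02 with a pseudocount of 1 FPKM. It overlaps the neighbouring gene AT1G72250 by 24 bp, and the authors' table gives the pair a joint locus. No source used here says whether counting used strand, so the value is uncertain.

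**Figure D2:**
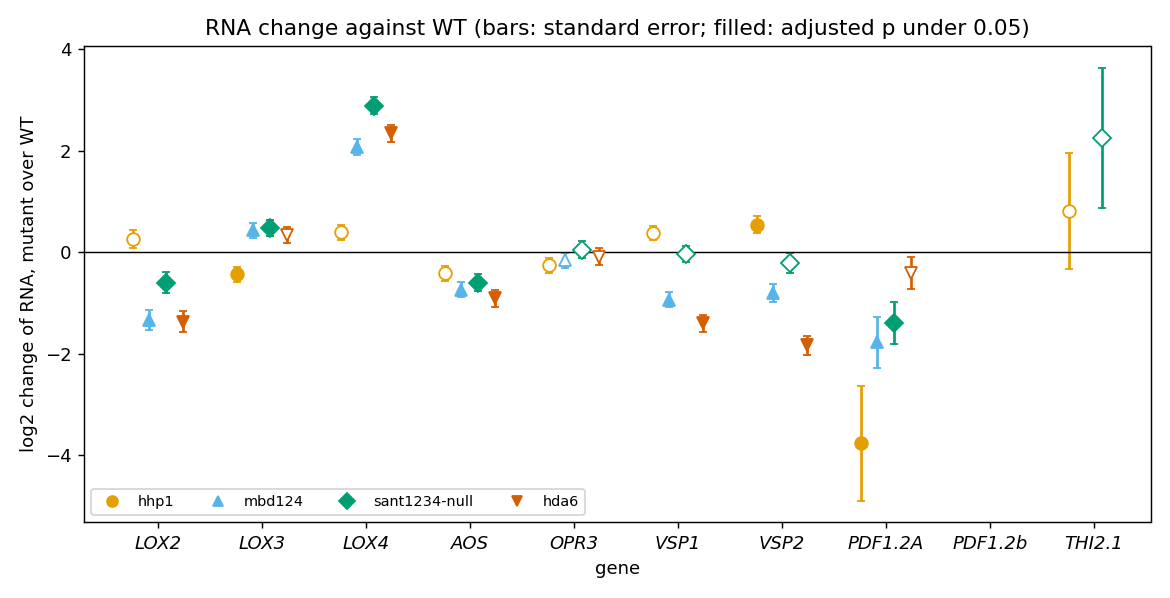
Log2 change of RNA against WT for the 10 genes (vertical axis, log2 of mutant over WT), with the standard error as bars, and filled symbols where the adjusted p is under 0.05. LOX4 is filled and between 2.08 and 2.89 in 3 mutants, LOX2 and AOS are filled and below 0 in the same 3, and PDF1.2b has no point because it was not tested.

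A call in 1 mutant and none in another does not show a difference, so the changes were compared between mutants in all 6 pairs, with a normal test adjusted over all genes tested in both tables. The mutants share the same WT, and treating the changes as independent widens the error. Most differences involved hhp1. Between hhp1 and mbd124, 5 of 8 members differed, where 4.94% of all genes did, and between hhp1 and hda6 5 of 8 did, where 4.04% did. For VSP2 the difference of hhp1 minus hda6 was 2.38 ± 0.26 on the log2 scale (adjusted p 2.26e-17 by the normal test over all genes), and for LOX2 it was 1.63 ± 0.27. Between hhp1 and sant1234-null 3 of 9 differed (3.86% of all genes), namely LOX2 (0.86 ± 0.28), LOX3 (-0.92 ± 0.22) and LOX4 (-2.49 ± 0.22). Among the other mutants, LOX4 was higher in sant1234-null than in mbd124 (mbd124 minus sant1234-null -0.80 ± 0.23), and VSP1 was lower in mbd124 (-0.90 ± 0.22), so 2 of 8 differed (2.78% of all genes). VSP2 was lower in hda6 than in mbd124 by 1.04 ± 0.26, the 1 of 8 that differed (4.23%). VSP1 and VSP2 were both lower in hda6 than in sant1234-null, by 1.35 ± 0.23 and 1.62 ± 0.27, the 2 of 8 that differed (1.58%). AOS, OPR3 and PDF1.2A passed in none of the pairs in this test. With errors from the deposited statistic as it stands, 0 members differed between mbd124 and sant1234-null, mbd124 and hda6, or sant1234-null and hda6. Then 3 differed between hhp1 and hda6 (LOX4, VSP1 and VSP2). Between hhp1 and mbd124, 2 did (LOX4 and VSP1), and between hhp1 and sant1234-null 1 did (LOX4). The differences without hhp1 and those of LOX2 and LOX3 thus depend on how the error was derived. In another setting, a fraction of the summed squared error was taken off for the shared WT, with no estimate of the WT error itself. With it off, 7 of 8 members differed between hhp1 and hda6, AOS and PDF1.2A among them. PDF1.2A then also differed between mbd124 and hda6, while OPR3 passed in none. For PDF1.2A in hhp1 and hda6, whose errors are very unequal, this can take off more than WT supplies, so no difference is read from it. For PDF1.2A the gap of hhp1 minus hda6 was -3.37, with an interval from -5.67 to -1.06 (adjusted p 0.0864 by the normal test over all genes), and a p that misses the threshold does not show that the mutants act alike.

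The other 69 genes of the pathway, from lists of synthesis, turnover, perception, JAZ, MYC-branch and ERF-branch genes, were described in the same way. In hhp1, 0 of 63 tested rose and 9 fell, so 14.3% were called where 6.14% of all genes were. In mbd124, 2 of 62 rose and 18 fell, 32.3% beside 11.3% of all genes. In sant1234-null, 7 of 63 rose and 8 fell, 23.8% beside 15.3%. In hda6, 2 of 63 rose and 11 fell, 20.6% beside 12.0%. Their median log2 changes were -0.11, -0.14, 0.01 and -0.06 in that order, beside -0.00, 0.01, 0.00 and 0.02 for all tested genes. In the ERF branch, the regulator ORA59 fell in all 4 mutants, from 12.3 FPKM in WT to 6.76 in hhp1, from 12.2 to 1.82 in mbd124, from 12.3 to 3.65 in sant1234-null and from 12.0 to 8.25 in hda6. Its log2 changes were -0.86 ± 0.17, -2.75 ± 0.25, -1.75 ± 0.21 and -0.54 ± 0.19. ERF1A, another ERF factor, fell in all 4 (-0.61, -1.91, -1.57 and -0.79), and ERF2 fell in mbd124 (-1.66) and sant1234-null (-1.43). ERF1B, the ERF1 named above, was called in no table. It had 1.69 FPKM in WT and 1.75 in hhp1, 1.87 in mbd124, 1.06 in sant1234-null and 1.58 in hda6. CHI-B and PR4, of the same list, were called in none either. The defensin gene PDF1.3, a near copy of PDF1.2A, rose from 1.65 to 10.3 FPKM in sant1234-null (2.64 ± 0.35) and from 1.62 to 5.13 in hda6 (1.67 ± 0.47). PDF1.2c was called in no table, with 1.39 FPKM in WT and 0.150 in hhp1, 0.184 in mbd124, 0.127 in sant1234-null and 1.38 in hda6.

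Within synthesis, AOC2, which acts after AOS, fell in mbd124 (log2 change -0.78 ± 0.16) and hda6 (-0.98 ± 0.17). AOC1 and AOC3, of the same family, rose in sant1234-null (0.60 ± 0.16 and 0.58 ± 0.15), and AOC1 fell in mbd124 (-0.42 ± 0.15). JMT, which methylates jasmonic acid, had the largest called change of the synthesis list in hda6, a fall from 1.43 to 0.552 FPKM (-1.37 ± 0.39). FAD8, a plastid desaturase that supplies the fatty acid, fell in mbd124 (-0.89) and hda6 (-0.80). Of the JAZ repressors, themselves jasmonate targets, JAZ7 fell in all 4 mutants by log2 changes of -1.63, -3.81, -3.04 and -2.96, and JAZ9 by -0.58, -1.47, -0.96 and -1.05 (hhp1, mbd124, sant1234-null, hda6). JAZ6 fell in mbd124 (-1.67), sant1234-null (-1.03) and hda6 (-0.80), and JAZ2 fell in mbd124 (-0.46) and hda6 (-0.60). In sant1234-null 2 JAZ genes rose beside the 3 that fell, JAZ10 from 4.92 to 7.19 FPKM (0.55 ± 0.20) and JAZ1 from 39.4 to 55.5 (0.49 ± 0.16), the latter named after its value was seen. In the MYC branch MYC2 itself fell in hhp1 (-0.64 ± 0.16) and was called in none of the other tables, and JAM2, a repressor of MYC targets, rose in mbd124 (0.90) and sant1234-null (0.68). CLH1 fell in all 4, CORI3 fell in mbd124 and hda6, and NAC019 rose in mbd124 (2.27) and sant1234-null (0.96). TAT3, a tyrosine aminotransferase gene, rose in hda6 from 3.30 to 10.4 FPKM (1.65 ± 0.18), the largest called change of that list there. NATA1 fell in mbd124 from 1.85 to 0.590 FPKM (-1.65 ± 0.50), and NAC055 fell in hhp1 (-0.95) and mbd124 (-0.78). In turnover, CYP94C1, an enzyme that oxidises the active hormone, fell in hhp1, mbd124 and sant1234-null (-0.85, -0.96 and -0.85). ILL6 fell in hhp1 (-0.66) and mbd124 (-0.50), and CYP94B1 (-0.92) and JRG21 (-1.05) fell in mbd124.

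**Figure D3:**
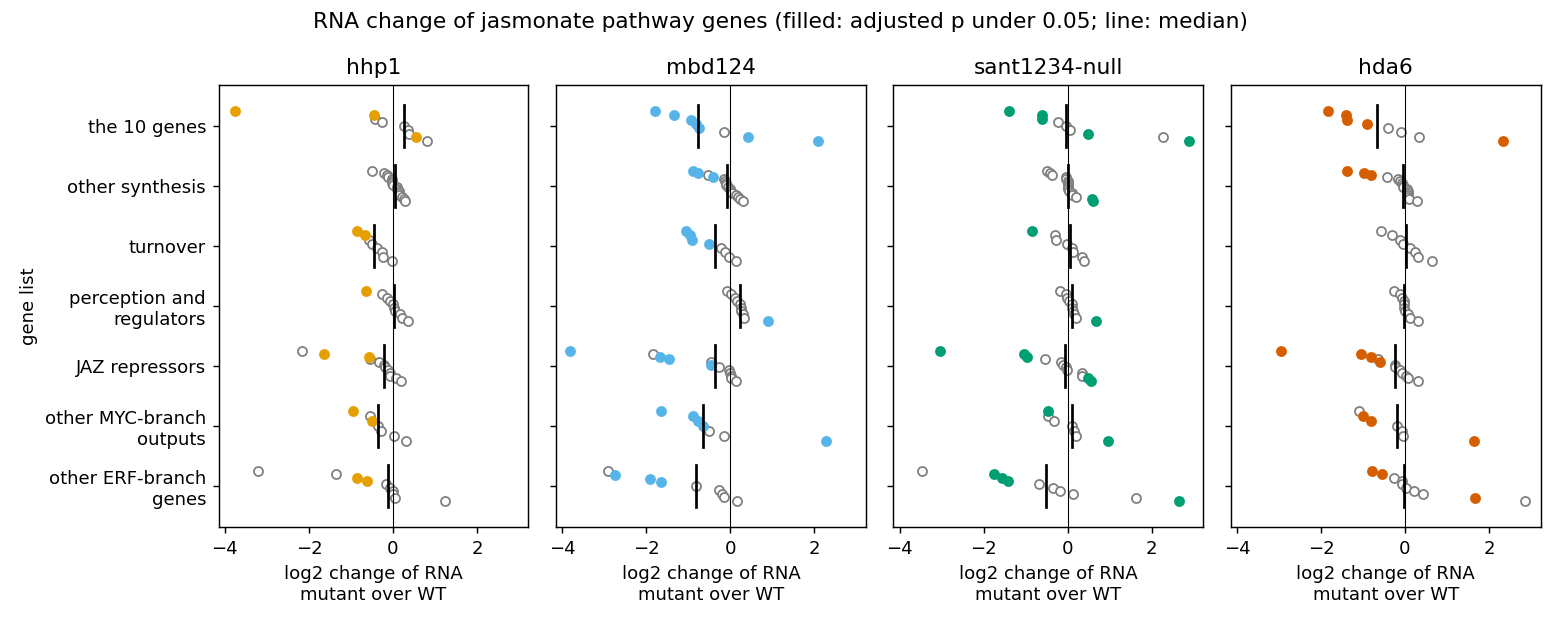
Log2 change of RNA against WT (horizontal axis) of each tested gene in 7 lists of jasmonate genes, 1 panel per mutant, filled where the adjusted p is under 0.05, with a line at the list's median. The 10 genes have their medians at 0.26, -0.78, -0.04 and -0.66, and JAZ7 is the filled point farthest to the left in the JAZ list of every mutant.

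Other marker lists moved in the same libraries, where 6.14% of all tested genes were called in hhp1, 11.3% in mbd124, 15.3% in sant1234-null and 12.0% in hda6. The salicylate markers PR1, PR2 and PR5 rose 3 of 3 in hhp1, sant1234-null and hda6, and 1 of 3 in mbd124. In hda6, PR1 went from 8.70 to 86.4 FPKM. Of the 9 genes that respond fast to touch and wounding, 2 rose and 4 fell in hhp1, 2 and 6 in mbd124, 3 and 6 in sant1234-null, and 3 and 5 in hda6. XTH22, which is induced by touch, went from 767 to 24.6 FPKM in mbd124 and from 768 to 422 in hhp1, and the WRKY33 and WRKY40 factors rose in all 4. Of the 7 leaf photosynthesis genes tested, 3 fell in hhp1, mbd124 and sant1234-null and 1 fell in hda6. Of the 5 root markers, 1 fell in hhp1 and in mbd124, and 1 rose in sant1234-null and in hda6. PI, the 1 floral gene tested, rose in hhp1 (1.56 ± 0.43) and sant1234-null (2.47 ± 0.38). The part of these lists in the changes of the 10 genes was not tested.

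To show which genes shared a member's pattern, the 4 nearest by Euclidean distance over the 4 log2 changes were taken among 20674 genes tested in all 4 tables. For LOX2 these were AT4G13800 (distance 0.238), AT3G28220 (0.375), AT3G26960 (0.397) and BHLH162 (0.495). For VSP2 they were AT5G27810 (0.428), AT5G00990 (0.473), AT3G63255 (0.5) and VSP1 (0.524). PDF1.2A had no neighbour as near, the nearest being AT1G09987 at a distance of 1.26, and the plastid genes NDHI (1.38) and NDHA (1.45) were among its 4. These distances take no account of the errors of the changes, which were wide for PDF1.2A. Some neighbours were low in WT: BHLH162 at 0.614 FPKM, AT1G09987 at 0.737, AT3G63255 at 0.853 and AT5G27810 at 0.891.

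Few H3ac peaks at these genes were called. A set of 13 peaks per table overlapped 7 of the genes, and none overlapped PDF1.2A, PDF1.2b or THI2.1. In sant1234-null 1 of the 13 peaks rose and 0 fell at an FDR under 0.05 in the authors' deposited table, where 28.1% of all peaks were called, 15.2% higher and 12.9% lower. The peak that rose lay in LOX2, 411 bp after its start, with a log2 fold of 0.66 ± 0.24, while LOX2 RNA fell. Here and below, the folds of peaks are those of the authors' deposited tables. The errors after ± were computed here from the deposited fold and p and are approximate. In hda6 0 rose and 2 fell, where 27.8% of all peaks were called, 5.29% higher and 22.5% lower. These lay in LOX3, 1607 bp after its start (-0.84 ± 0.23), and in AOS, 691 bp after its start (-0.50 ± 0.17), in the authors' deposited table. Removing the median of all peaks, -0.23, left no member peak called in hda6. At LOX4, the gene with the largest rise in RNA, 3 peaks had log2 folds of 0.06, 0.20 and 0.35 in sant1234-null and -0.26, -0.41 and 0.02 in hda6 in the authors' deposited tables, and none was called. The median over the 13 peaks was 0.21 in sant1234-null, beside -0.02 for all peaks, and -0.30 in hda6, beside -0.23.

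Outside the genes, within 1000 bp, a peak over AT1G72250 beside THI2.1 rose in sant1234-null (log2 fold 1.92 ± 0.47), and a peak over AT1G72530 after LOX4 fell in hda6 (-0.68 ± 0.22), both in the authors' deposited tables. At weak peaks the authors' fold was smaller than the difference of their own concentrations. At VSP1 the log2 concentration went from 4.02 in WT to 5.28 in sant1234-null with a deposited fold of 0.32.

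**Figure D4:**
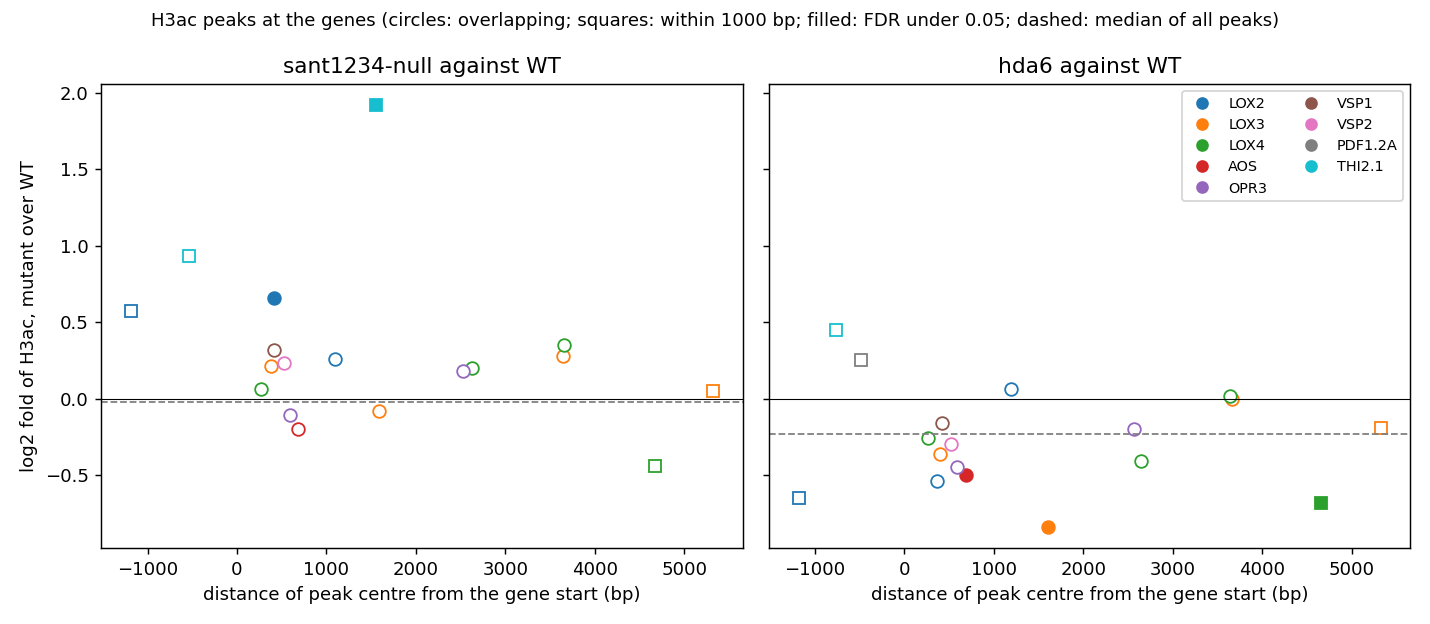
Log2 fold of H3ac (vertical axis, mutant over WT, the authors' values) of peaks at the genes, against the distance in bp of the peak's centre from the gene's start. Circles overlap the gene, squares lie within 1000 bp of it, filled symbols have an FDR under 0.05, and the dashed line is the median of all peaks. In sant1234-null the filled circle is LOX2 at 0.66, and in hda6 the filled circles are LOX3 at -0.84 and AOS at -0.50.

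Over whole genes, H3ac is given in RPKM (reads scaled to gene length and mapped reads, 1 value per genotype with no input subtracted). AOS carried the most, with 77.1 RPKM in WT, 64.4 in sant1234-null and 53.6 in hda6. Its counting intervals (95%, exact Poisson) were 75.7 to 78.6, 63.2 to 65.6 and 52.4 to 54.8, which do not overlap. LOX4 was at 23.6, 24.4 and 19.7 RPKM, LOX2 at 11.4, 12.5 and 12.1, and LOX3 at 27.8, 30.9 and 22.8. OPR3 was at 26.3, 24.7 and 20.5 RPKM, in the order WT, sant1234-null and hda6. VSP2, whose RNA was the highest of the 10, had only 8.79, 9.96 and 7.60 RPKM, and VSP1 10.3, 11.9 and 9.52. PDF1.2A was at 4.70, 4.68 and 5.40 RPKM with counting intervals (95%, exact Poisson) of 4.10 to 5.36, 4.12 to 5.30 and 4.76 to 6.11. PDF1.2b was at 3.66, 4.09 and 5 RPKM. THI2.1 was at 6.45, 9.64 and 8.45 RPKM, with counting intervals of 5.9 to 7.04, 9 to 10.3 and 7.82 to 9.11. On the log2 scale of RPKM + 1, the ratios to WT ran from -0.26 to 0.51 in sant1234-null (median 0.12, 7 of 10 above 0) and from -0.52 to 0.37 in hda6 (median -0.15, 6 of 10 below 0), where the median of all genes was 0.06 in both. With 1 value per genotype there is no test of these ratios, and intervals cover counting error only.

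**Figure D5:**
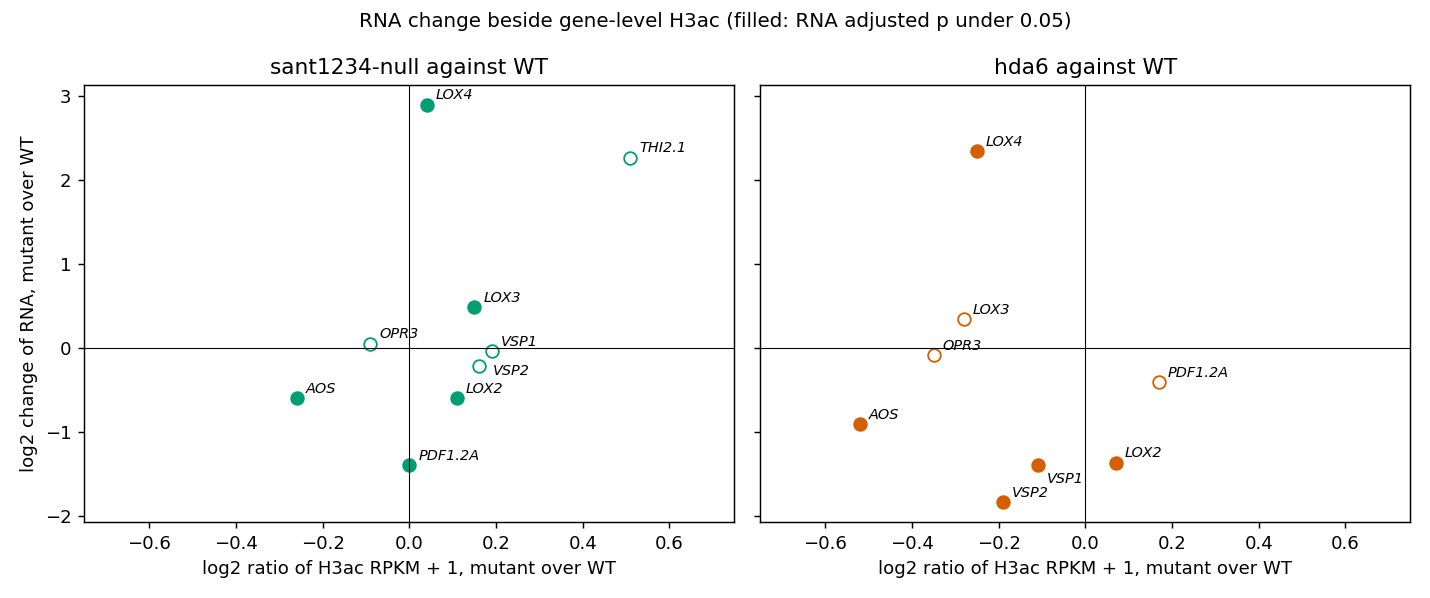
Log2 change of RNA (vertical axis) against the log2 ratio of H3ac RPKM + 1 (horizontal axis), mutant over WT, for the genes tested in RNA, filled where the RNA adjusted p is under 0.05. LOX4 lies at 2.89 in sant1234-null and 2.34 in hda6 with H3ac ratios of 0.04 and -0.25, and the first becomes -0.02 when the median of all genes is taken off.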

How the data were processed

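The RNA tables hold FPKM, 1 value per genotype, as deposited by the authors, with a test statistic (score), a p-value and a q-value. The H3ac tables hold a deposited read count, RPKM, mapped reads and gene length. The deposited peak tables give each peak's log2 concentration per genotype and log2 fold, with a p-value and an FDR. The submitters' processing notes list Bowtie2 2.4.1, TopHat2 2.0.12, DiffBind, MACS2 2.1.1.20160309, Cuffdiff and Cufflinks 2.2.1, bedtools and CASAVA, with the build TAIR10 and no roles. Calls are those of the authors, at an adjusted p or FDR under 0.05.

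Computed here, with Python 3.11.15, pandas 2.3.3 and scipy 1.17.1, were log2 changes of FPKM with no pseudocount, standard errors, differences between mutants (Benjamini-Hochberg adjusted), overlaps of peaks with genes by at least 1 bp, and motif matches. A standard error was the log2 change over the normal quantile of the deposited p. Where p was near 1, it was the log2 change over 1.74 times the deposited statistic. Where p was at its floor of 5e-05, it was the smaller of these errors. The standard errors and the difference test were run on simulated data. These had independent normal errors, no shared WT and a statistic built with the same factor of 1.74, so those assumptions were not tested. Errors of peak folds were computed here as the deposited fold over the normal quantile of its p. Deposited RPKM equalled reads over length and mapped reads for 100% of genes within 0.1 percent. All 10 members were named. Genes of other lists were drawn from the up to 4 with the largest called change per comparison, plus near copies and neighbours. All of these are named for the pathway lists, and a few for the marker lists. Some further genes, ERF1B, CHI-B and PR4 among them, were named after their values were seen. The members and lists were chosen with earlier results of these data known. Transposon tables were not used, and 0 columns of per-sample values were left unused.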

Additional observations from a re-analysis of the deposited data

How the results depend on the processing

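No paired analysis was possible because the tables hold 1 value per genotype, and for the same reason no sample could be left out in turn. At an adjusted p under 0.01 the members called numbered 0 in hhp1 and 3 in sant1234-null. With a log2 change of at least 1 they numbered 1 in hhp1, 3 in mbd124 and 2 in sant1234-null, and the other pathway genes 1 in hhp1, 9 in mbd124, 6 in sant1234-null and 5 in hda6. With errors from the deposited statistic as it stands, the members that differed numbered 2 between hhp1 and mbd124, 1 between hhp1 and sant1234-null, 3 between hhp1 and hda6, and 0 between mbd124 and sant1234-null, between mbd124 and hda6, and between sant1234-null and hda6. With a fraction of the summed squared error taken off for the shared WT, they numbered 7 between hhp1 and hda6, AOS and PDF1.2A included. They then numbered 4 between mbd124 and sant1234-null, 3 between mbd124 and hda6 and 4 between sant1234-null and hda6. At an FDR under 0.01 the member peaks called numbered 0 in sant1234-null and 1 in hda6. Flanks of 500 bp gave 2 in sant1234-null, and centring on the median of peaks gave 0 in hda6. Of the other settings, 8 gene-level H3ac ratios moved on centring by more than their counting interval. The ratio of LOX4 in sant1234-null then changed sign, from 0.04 to -0.02, and no called change did under the settings run. A pseudocount of 1 took PDF1.2A in hhp1 from -3.77 to -2.22 and THI2.1 in sant1234-null from 2.26 to 1.02. The cause of these shifts was not tested. RNA depth is unknown, which limits what the low genes PDF1.2b and THI2.1 can show.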

Other observations

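H3ac at the other pathway genes was also measured, over 83 peaks in each table. In sant1234-null 8 rose and 5 fell in the authors' deposited table, where 15.2% of all peaks were called higher and 12.9% lower. In hda6 0 rose and 18 fell in the authors' deposited table, where 5.29% of all peaks were called higher and 22.5% lower, so the share of falls lay near that of all peaks. The largest rises in sant1234-null were in JR1 (log2 fold 1.43 ± 0.29), JRG21 (1.38 ± 0.39), CORI3 (1.21 ± 0.35) and JAZ8 (1.05 ± 0.36). The RNA of these genes was not called there. COI1, the jasmonate receptor, had a lower peak near its start in both mutants (log2 fold -0.61 ± 0.19 in sant1234-null and -0.71 ± 0.22 in hda6). So did MYC3 (-0.44 ± 0.17 and -0.62 ± 0.19). The RNA of COI1 and MYC3 was called in neither mutant. Another COI1 peak, farther from the start, was not called (0.07 in sant1234-null and -0.34 in hda6). The median fold of all peaks was -0.02 in sant1234-null and -0.23 in hda6, and it was not taken off these folds. A peak in JAZ6 fell in both mutants (-1.01 ± 0.29 and -1.02 ± 0.28 in the authors' deposited tables). It lay 2130 bp after the start in sant1234-null and 2134 bp in hda6. The JAZ6 peaks nearer the start were not called, with folds of 0.04 and -0.18 in sant1234-null and -0.19 and -0.29 in hda6. JAZ6 RNA fell in both mutants (log2 change -1.03 ± 0.16 and -0.80 ± 0.16). JAZ7 went in opposite directions in sant1234-null, where its peak rose (0.69 ± 0.21 in the authors' deposited table) while its RNA fell (-3.04 ± 0.33).

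OPR1, a relative of OPR3 that is not the peroxisomal enzyme, rose in hhp1 from 113 to 201 FPKM (log2 change 0.84 ± 0.17) and in sant1234-null from 113 to 216 FPKM (0.94 ± 0.20). It shares a locus with OPR2 in the RNA tables. OPR2 went from 22.5 to 37.8 FPKM between WT and hhp1 and was not called, so the value of each is uncertain.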
